A study of Mus musculus with 34 samples.

Results

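The results below describe 10 amino acid transporter genes in mouse cumulus cells (CCs), the somatic cells that surround the oocyte: Slc38a1, Slc38a2, Slc38a3, Slc1a5, Slc7a1, Slc7a5, Slc7a6, Slc7a11, Slc3a2 and Slc36a1. They were chosen by name from the 25965 entries of the count table, and they were selected on earlier results of these data, in which Slc36a1 was lower after 4 weeks of high-fat diet. The values of that diet comparison are therefore given as a description, with no test.

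RNA-seq libraries were made from about 50 CCs of single cumulus-oocyte complexes, collected from superovulated C57BL/6J females. In the pharmacological hyperleptinemic model, mice received 100 µg of leptin per day for 16 days (16 L, n = 5) or saline (16 C, n = 3), given intraperitoneally. In the diet-induced obesity (DIO) protocol, mice of 8 weeks of age were placed on chow diet (CD, 11% of energy from fat) or high fat diet (HFD, 58%), for 4 weeks (CD, n = 5, and HFD, n = 5) or 16 weeks (CD, n = 6, and HFD, n = 7), and 3 further mice on 16 weeks of HFD were labelled as low weight gainers. The injected mice were also 8 weeks old at the start. Each library holds the CCs of 1 complex, so it samples 1 follicle and not the whole ovary.

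The oocyte takes up some amino acids poorly, and CCs import them from the follicular fluid and pass them on through gap junctions. Transporters of the SLC38 family and Slc1a5 carry neutral amino acids such as alanine and glutamine, Slc7a1 carries arginine and lysine, and Slc7a5, Slc7a6 and Slc7a11 are light chains that reach the cell surface bound to the heavy chain encoded by Slc3a2. Slc36a1 moves small neutral amino acids together with protons and also lies on lysosomes, where amino acid levels are read by mTORC1. A shortage of amino acids activates the transcription factor ATF4, which induces several transporter genes together with genes of amino acid synthesis.

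Library totals ranged from 1104611 to 13207018 counts. Levels are given as CPM, counts scaled to a common library size with trimmed mean of M values (TMM) factors over all 34 libraries. Of 11 granulosa and cumulus genes, Inha, Inhba and Fst had the highest medians, at 569, 210 and 375 CPM, and were detected in every library. Fshr, Foxl2, Cyp19a1 and Wt1 had medians of 10.3, 6.76, 2.88 and 2.08 CPM, and Amh was at 0 in 16 libraries. Of 7 cumulus expansion genes, Tnfaip6 had the highest median, at 468 CPM, followed by Ptgs2 at 107 CPM. Has2, Ereg and Areg had medians of 2.20, 2.00 and 0.484 CPM and were at 0 in 3, 10 and 12 libraries. The library 16 L replicate 18 stood apart. Its 8 oviduct epithelium markers summed to 35233 CPM, including 32721 CPM of Ovgp1, its red blood cell markers to 10985 CPM and its expansion markers to 9.00 CPM, against 207 CPM or more of expansion markers in the other 33 libraries. Red blood cell and oviduct markers were also present in 16 L replicate 21, at 1940 and 1848 CPM. Oviduct markers summed to 1430 and 671 CPM in 16 L replicates 20 and 23, to 130 CPM in 16 L replicate 19 and to 681 CPM in 16-week HFD replicate 10. Their median over all 34 libraries was 229 CPM. By single gene, the keratin genes Krt8 and Krt18 had medians of 97.2 and 86.5 CPM and Ovgp1 of 36.2 CPM. The other oviduct markers had medians of 0.774 CPM or less. The library 4-week HFD replicate 5 held oocyte markers at 313 CPM. Because these are bulk libraries, fewer cells of a type and less RNA per cell cannot be told apart.

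Per length of the annotated exons, the heavy chain Slc3a2 was the most abundant of the 10 transporters, at a median of 69.9 CPM per kb over 34 libraries. The alanine and glutamine carrier Slc38a2 followed at 58.3 CPM per kb. The y+L type light chain Slc7a6 and the arginine carrier Slc7a1 lay at 13.3 and 10.9 CPM per kb. Lower levels were measured for Slc38a1 (4.79), the leucine carrier Slc7a5 (4.27), Slc1a5 (3.14), Slc36a1 (1.70), the cystine carrier Slc7a11 (0.847) and the glutamine carrier Slc38a3 (0.527 CPM per kb). The order depends on the division by length. Without it, median CPM was higher for Slc38a2 (515) than for Slc3a2 (247), and higher for Slc7a1 (126) and Slc38a1 (82.6) than for Slc7a6 (60.6). Slc38a3 was at 0 in 4 libraries, and all other members were detected in every library. Of 43 further amino acid transporters, the taurine carrier Slc6a6 reached 47.2 CPM per kb and Slc7a8, Slc36a2 and Slc38a5 reached 13.1, 11.9 and 6.76 CPM per kb.

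**Figure D1:**
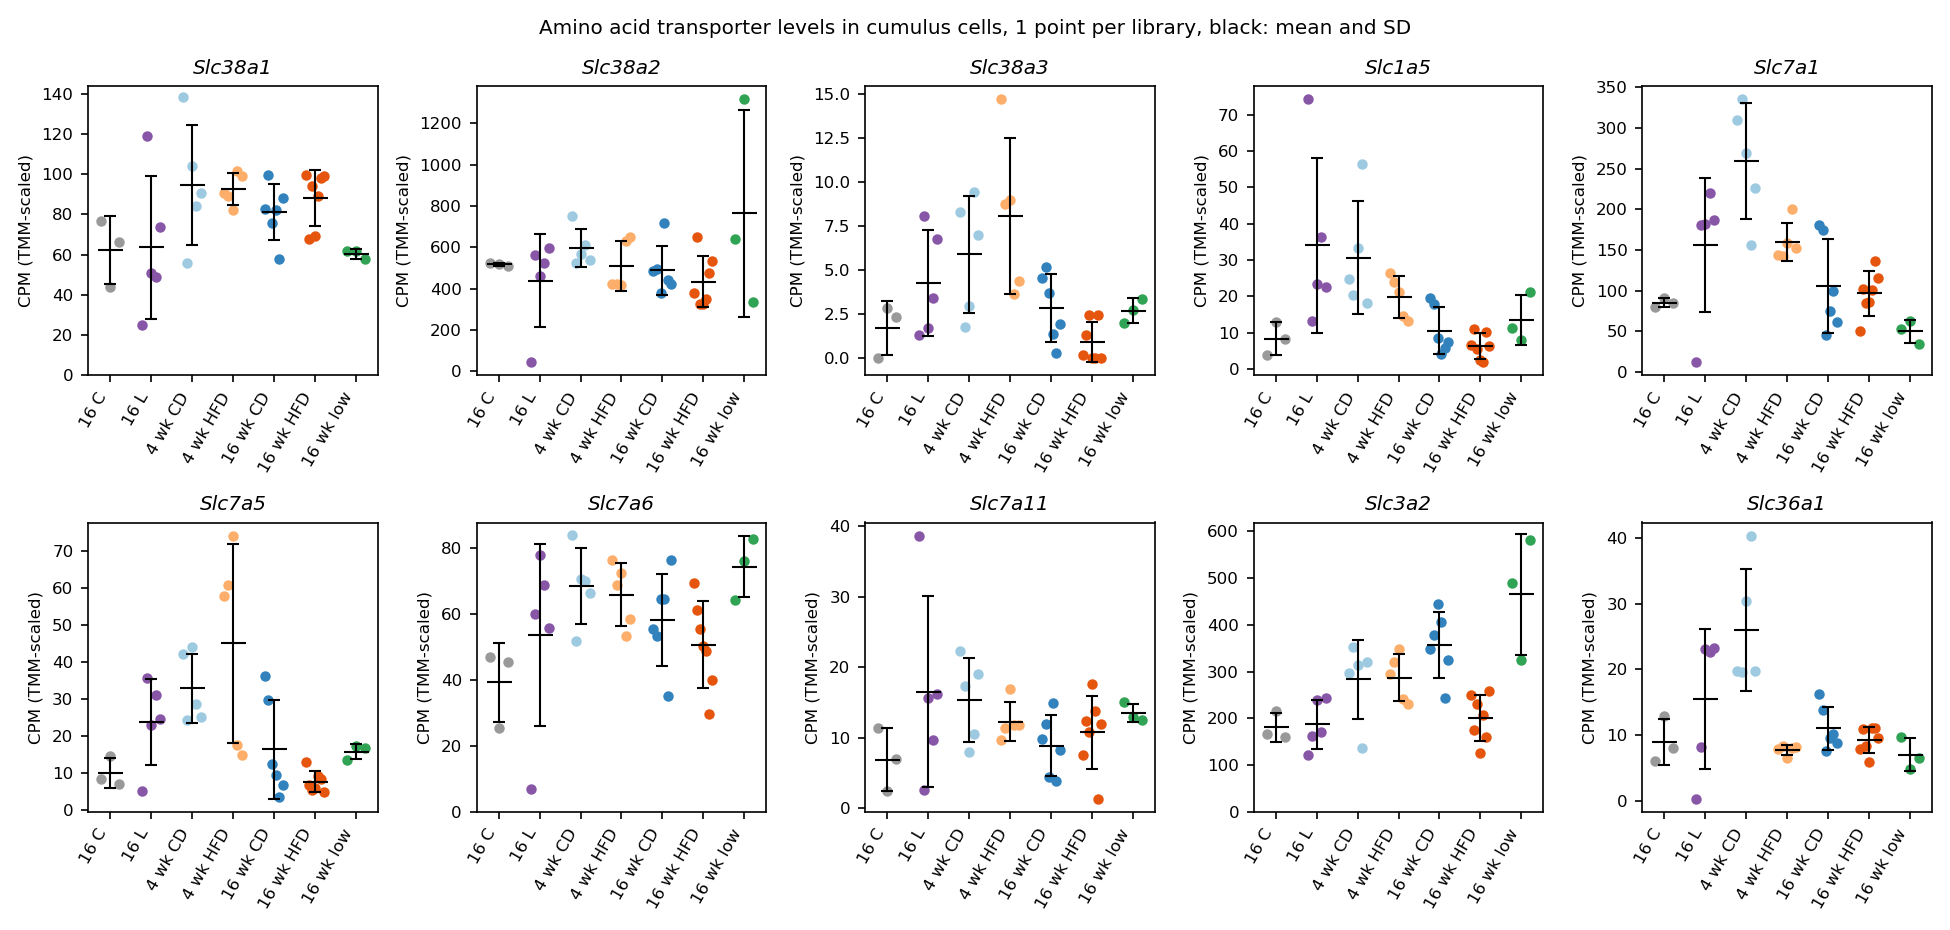
Levels of the 10 transporter genes in TMM-scaled CPM (vertical axes, linear) by group (horizontal axes); points are libraries and black marks are the mean and SD. Slc36a1 lies between 6.46 and 8.30 CPM in 4-week HFD and at 19.7 CPM or more in 4-week CD, and the lowest Slc38a2, Slc7a1 and Slc7a6 values all belong to 16 L replicate 18.

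Most neighbouring groups could not be ordered within a member, while groups farther apart in the order can still separate. For Slc38a1, Slc38a2, Slc38a3, Slc7a6, Slc7a11, Slc1a5 and Slc36a1, no pair of neighbouring group means was farther apart than the larger of their SDs. The Slc36a1 means ran from 25.99 ± 9.27 CPM (SD, n = 5) in 4-week CD, through 15.5 ± 10.6 in 16 L, 11.0 ± 3.32 in 16-week CD, 9.25 ± 1.98 in 16-week HFD, 9.02 ± 3.51 in 16 C and 7.76 ± 0.743 in 4-week HFD, to 7.03 ± 2.49 CPM in low weight gainers. For Slc3a2 the means were 465 ± 130 CPM in low weight gainers, 357 ± 70.0 in 16-week CD, 287 ± 50.7 and 283 ± 84.7 in the HFD and CD groups of 4 weeks, 201 ± 49.2 in 16-week HFD and the lowest in 16 L (187 ± 52.3) and 16 C (181 ± 31.2), and only the step from 16-week CD to 4-week HFD exceeded the SDs. Slc7a1 ranged from 260 ± 71.1 CPM in 4-week CD to 50.2 ± 14.2 CPM in low weight gainers, with steps beyond the SDs at its upper end (4-week CD to 4-week HFD) and at its lower end (16 C to low weight gainers). Slc7a5 ranged from 45.0 ± 27.0 CPM in 4-week HFD to 7.62 ± 2.82 CPM in 16-week HFD, with such a step from low weight gainers to 16 C.

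The genes lie on 8 chromosomes of GRCm38. Slc38a1 (chromosome 15, 96571418 to 96642913) and Slc38a2 (chromosome 15, 96687394 to 96699698) are neighbours on the minus strand. Slc36a1 lies on chromosome 11 (55204350 to 55236330, plus strand), Slc7a11 on chromosome 3 (50364936 to 50443613, minus strand) and Slc3a2 on chromosome 19 (8706882 to 8723369, minus strand). The reads of Slc7a5 (chromosome 8, 121881146 to 121907686, minus strand) could be shared with the overlapping entry Gm20388. RefSeq promoters (GRCm38.p6) matched 6 of the 10 genes, and no entry was matched for Slc38a1, Slc38a3, Slc7a5 and Slc1a5. The 250 bases upstream of each start were searched on both strands for the core of the amino acid response element bound by ATF4 (TGATGNAA), for the E-box CACGTG and for the core of the antioxidant response element (TGACNNNGC). Matches did not overlap in the windows shown. Of 32851 promoters, 3.45%, 6.02% and 10.2% held them. The 2 sequences below are shown because Slc7a11 was the only one of the 6 matched genes with the ATF4 core, on both strands, and Slc36a1, whose 4-week values led to this choice of members, the only one with the E-box. Capitals mark the matches.
Slc7a11 (chr3:50443633-50443699, minus strand, 86 to 20 bases before the start): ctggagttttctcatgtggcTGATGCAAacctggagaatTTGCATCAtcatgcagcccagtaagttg
Slc36a1 (chr11:55204289-55204334, plus strand, 51 to 6 bases before the start): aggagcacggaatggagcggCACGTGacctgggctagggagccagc
The antioxidant core was found in the windows of Slc7a1, Slc7a6 and Slc38a2, and none of the 3 letter patterns in that of Slc3a2. A match describes letters only, and binding was not measured.

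Leptin treatment was compared with saline to see how the transporters differ under pharmacological hyperleptinemia. None of the 10 members passed an adjusted p of 0.05 in the quasi-likelihood F-test of edgeR (Benjamini-Hochberg adjusted), in which 4.06% of the 11723 genes tested were called higher and 4.5% lower in 16 L. Slc1a5 was the only member with an unadjusted p under 0.05, beside 3798 of the 11723 genes tested. The level of 1 library decided several values, since 16 L replicate 18 was the lowest of the 5 for Slc38a1, Slc38a2, Slc38a3, Slc7a1, Slc7a5, Slc7a6, Slc3a2 and Slc36a1 and the highest for Slc1a5 and Slc7a11.

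Among the neutral amino acid carriers, Slc1a5, an exchanger best known for glutamine, read 3.79, 13.02 and 8.11 CPM in 16 C and 74.4, 13.1, 23.5, 36.5 and 22.6 CPM in 16 L replicates 18, 19, 20, 21 and 23. All 5 leptin libraries lay above the 3 control libraries, with 1 of them just above. Its log2 fold change was 2.00 (SE 0.67, adjusted p = 0.0829 by edgeR) and was 1.31 (SE 0.50, adjusted p = 0.0569) without replicate 18. Slc1a5 was called higher by DESeq2 (2.01, adjusted p = 0.021), by limma-voom (1.68, adjusted p = 0.000975), with library totals (2.74, adjusted p = 0.014), in a joint edgeR fit of the 34 libraries (1.97, adjusted p = 0.0107) and without 16 L replicate 19 (2.22, adjusted p = 0.0493). Of all genes, 1595, 3912 and 3652 of 11723 were called higher in the first 3 of these fits. The joint fit called 2720 of 13236 higher, and the fit without replicate 19 called 871 of 11103. Slc1a5 was the only 1 of the 10 members whose groups did not overlap, and 23.3% of all genes tested did not overlap. Slc38a2 was at 525, 520 and 510 CPM in 16 C and, apart from replicate 18 at 43.5 CPM, at 461 to 594 CPM in 16 L, with a log2 fold change of -0.26 (SE 0.65) that turned to 0.65 when libraries were scaled by their totals. Slc38a1 differed by 0.03 on the log2 scale (SE 0.47), with -0.0074 under RLE scaling and 0.88 with library totals, and Slc38a3 by 1.15 (SE 0.93).

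Slc7a1, which carries arginine and lysine, read 80.3, 90.9 and 84.9 CPM in 16 C, and 12.0 CPM in 16 L replicate 18 against 181, 181, 220 and 187 CPM in the other leptin libraries. The 4 other libraries were all above the controls and replicate 18 was below them. The log2 fold change over all libraries was 0.86 (SE 0.70, adjusted p = 0.413 by edgeR). Without replicate 18 it was 1.08 (SE 0.23, adjusted p = 0.00491), which passed the threshold. Slc7a5, the leucine carrier, read 8.34, 14.4 and 6.95 CPM in 16 C and 5.00, 35.6, 23.1, 30.98 and 24.6 CPM in 16 L, with replicate 18 again alone below the controls. Its log2 fold change was 1.22 (SE 0.60, adjusted p = 0.185 by edgeR), and it too passed without replicate 18 (1.37, SE 0.37, adjusted p = 0.0152). In the fit without replicate 18, however, 20.2% of 11077 genes were called higher and 21.7% lower, so that 2 of 10 members called higher matched the share among all genes.

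The other light chains and the heavy chain gave no call by edgeR with or without replicate 18, while limma-voom with quality weights called Slc7a6 (0.58, adjusted p = 0.0401) and Slc7a11 (1.09, adjusted p = 0.0454). That fit called 6 members higher in all, the others being Slc1a5, Slc7a1 (1.17), Slc7a5 (1.55) and Slc36a1 (1.30, adjusted p = 0.0188). Over all genes it called 3912 of 11723 higher and 3562 lower. Slc7a6 had a log2 fold change of 0.45 (SE 0.62) and Slc7a11, which imports cystine for glutathione synthesis, of 1.37 (SE 0.85). Slc7a11 was at 38.7 CPM in replicate 18 and at 2.60 to 16.2 CPM in the other 4 leptin libraries, and its value was 0.70 (SE 0.72) without replicate 18. Slc3a2 read 166, 216 and 159 CPM in 16 C and 122 to 243 CPM in 16 L, at 0.05 (SE 0.34, 95% interval -0.71 to 0.81), with a sign that turned when single libraries were left out. Slc36a1 was at 6.06, 12.9 and 8.11 CPM in 16 C and at 0.333, 8.19, 23.1, 22.7 and 23.3 CPM in 16 L, with a log2 fold change of 0.72 (SE 0.93).

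The 16 C and 16 L libraries also differed in make-up. The 10 most abundant genes took 17.6 to 18.04% of the counts in 16 C and 5.49 to 10.3% in 16 L, and the median over all genes tested was 0.27 on the log2 scale with TMM and 1.08 with library totals. The transporters together took 0.0602 to 0.0682% of the counts in 16 C and 0.139 to 0.165% in 16 L without replicate 18, which was at 0.0295%. Expansion markers summed to 1227 to 2247 CPM in 16 C and to 9.00 to 670 CPM in 16 L, with no overlap, and macrophage and neutrophil markers to 117 to 730 CPM and 68.7 to 1108 CPM. Oviduct markers summed to 202 to 227 CPM in 16 C and to 130 to 35233 CPM in 16 L. For red blood cell markers the ranges were 1.54 to 30.2 CPM and 3.10 to 10985 CPM. The part of these differences in the results was not tested. The median log2 fold change of the 10 members was 0.79.

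**Figure D2:**
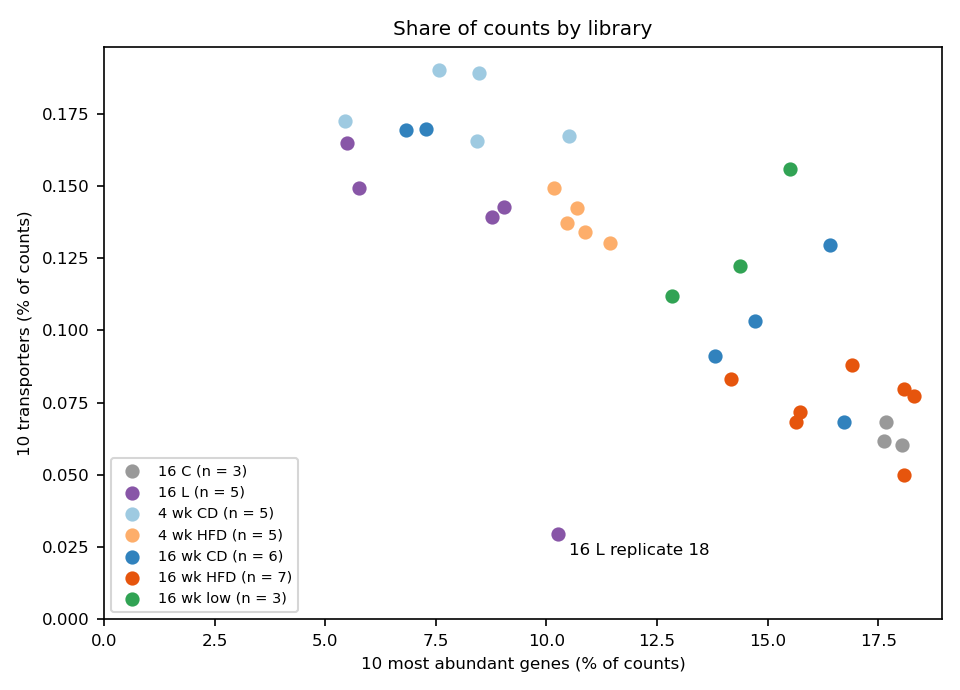
Share of all counts taken by the 10 transporters (vertical axis, %) against that of the 10 most abundant genes (horizontal axis, %), 1 point per library, coloured by group. The 3 saline libraries lie at 17.6 to 18.04% on the horizontal axis and the 5 leptin libraries at 5.49 to 10.3%, and 16 L replicate 18 has the lowest transporter share of all 34 libraries.

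Among pathway lists, 2 of the 22 tested other transporters rose and 1 fell in 16 L, where 4.06% of all genes were called higher and 4.5% lower. Slc36a4, a relative of Slc36a1, fell, with a log2 fold change of -2.22 (SE 0.35, adjusted p = 0.0131 by edgeR). Slc38a10 rose by 1.77 (SE 0.47) and the glutamine carrier Slc38a5 by 1.34 (SE 0.34). Of 20 tested ATF4 response genes only Psat1, an enzyme of serine synthesis, rose (3.11, SE 0.83, adjusted p = 0.0477). Of 24 lysosomal amino acid sensing genes, the mTOR complex subunit Mlst8 rose (3.28, SE 0.51) and the Rag GTPase Rragd fell (-1.71, SE 0.33, both at adjusted p under the threshold). Of 6 glutathione genes, the glutathione synthetase gene Gss fell (-1.20, SE 0.32).

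All 7 of these genes were also called without replicate 18, in the same direction, with Slc36a4 at -2.24 (SE 0.32), Slc38a10 at 1.87 (SE 0.33), Slc38a5 at 1.32 (SE 0.30), Psat1 at 2.23 (SE 0.58), Mlst8 at 3.36 (SE 0.42), Rragd at -1.70 (SE 0.26) and Gss at -1.42 (SE 0.24). In that fit, where 20.2% of all genes were called higher and 21.7% lower, more genes of each list passed. Of 19 other transporters 9 were then higher and 3 lower, of 19 ATF4 genes 4 were higher and 4 lower, of 24 lysosomal genes 3 were higher and 6 lower, and of 6 glutathione genes 2 were lower.

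After 4 weeks of diet, the comparison that chose the members, Slc36a1 read 19.8, 19.7, 30.4, 40.4 and 19.7 CPM in CD replicates 1, 2, 7, 8 and 11, and 7.90, 8.30, 6.46, 7.98 and 8.16 CPM in HFD replicates 3, 4, 5, 13 and 14. Every HFD library was below every CD library. On the log2 scale the difference was -1.76 (SE 0.27), a level 0.296 times that of CD, and it stayed between -1.85 and -1.53 when 1 library at a time was left out. Because these values chose the members, no call is read from them. Over all 11727 genes tested, 1.19% were called higher and 3.06% lower. The next largest difference was that of Slc7a1, which read 310, 336, 269, 156 and 227 CPM in CD and 144, 143, 159, 201 and 152 CPM in HFD, a log2 fold change of -0.71 (SE 0.25).

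The HFD libraries formed separate sets for other members at 4 weeks. Slc38a2 was at 422, 422 and 418 CPM in HFD replicates 3, 4 and 5 and at 630 and 650 CPM in replicates 13 and 14, against 524 to 752 CPM in CD. Slc7a5 was at 57.8, 60.7 and 74.2 CPM in the former and at 17.5 and 15.0 CPM in the latter, with CD at 24.4 to 43.9 CPM between them. Slc38a3 went the same way as Slc7a5, with 14.7, 8.74 and 8.96 CPM in HFD replicates 3, 4 and 5 and 3.62 and 4.36 CPM in replicates 13 and 14. Slc36a1 did not separate these sets. The log2 fold changes over all libraries were 0.41 (SE 0.39) for Slc7a5, 0.39 (SE 0.46) for Slc38a3, -0.25 (SE 0.25) for Slc38a2 and -0.66 (SE 0.33) for Slc1a5. For Slc38a1, Slc7a6, Slc7a11 and Slc3a2 they lay between -0.35 and 0.00. Replicate 5, the library with oocyte markers, held the lowest Slc36a1 of its group, and its part was not tested.

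In the same comparison the amino acid carriers Slc43a2 and Slc7a3 had log2 fold changes of -1.54 (SE 0.36) and -1.43 (SE 0.36), the transcription factor Atf5 of -1.88 (SE 0.36), and Wdr59, part of the GATOR2 complex that signals to mTORC1, of -1.04 (SE 0.24). These 4 were the genes of the pathway lists past the threshold, out of 21, 22 and 24 tested in the other transporter, ATF4 and lysosomal lists. All were lower in HFD, where 3.06% of all genes were lower and 1.19% higher.

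After 16 weeks of diet no member passed the threshold, in a comparison where 0.00921% of 10861 genes were called higher in HFD and 0.0184% lower. The member nearest to the threshold was the heavy chain Slc3a2. It ranged from 243 to 444 CPM in CD (median 362) and from 126 to 259 CPM in HFD (median 207). Of the 7 HFD libraries, 5 were below all 6 CD libraries. The difference was -0.83 on the log2 scale (SE 0.22, adjusted p = 0.0654 by edgeR). Slc3a2 and Slc7a5 were the only members with an unadjusted p under 0.05, as were 2748 of all genes tested. Slc3a2 was called lower by DESeq2 (-0.81, adjusted p = 0.00706), with library totals (-1.20, adjusted p = 0.0311), with the 34 libraries in a joint fit (-0.83, adjusted p = 0.0218) and without CD replicate 9 (-0.92, adjusted p = 0.0155), but not by limma-voom (-0.76, adjusted p = 0.113). Of all genes, 765 and 1591 of 10861 were called lower by DESeq2 and with library totals. The joint fit called 1136 of 13236 lower, and the fit without CD replicate 9 called 1400 of 10830.

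Slc7a5 followed with 3.59 to 36.3 CPM in CD (median 10.9) and 4.92 to 12.95 CPM in HFD (median 6.67). The CD range held all HFD values, and the high CD values were those of replicates 1 and 2 (36.3 and 29.7 CPM). Its log2 fold change was -1.14 (SE 0.46, adjusted p = 0.142 by edgeR), and it was called only without CD replicate 9 (-1.35, adjusted p = 0.0307). Without CD replicate 1 it was -0.71 (adjusted p = 0.41), and without CD replicates 1 and 2 it was -0.027. CD replicates 1 and 2 also stood apart for Slc7a1, at 180 and 175 CPM against 45.0 to 99.6 CPM in the other 4, and for Slc1a5, at 19.6 and 17.96 CPM against 4.07 to 8.48 CPM. They had TMM factors of 1.33 to 1.37, the other 4 CD libraries of 0.761 to 0.989. Without both, the log2 fold changes of Slc7a1, Slc1a5 and Slc36a1 changed sign from -0.15, -0.73 and -0.27 to 0.50, 0.07 and 0.09, none of them called.

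For the remaining members, Slc36a1 ranged from 7.59 to 16.2 CPM in CD (median 9.86) and from 5.85 to 11.0 CPM in HFD (median 9.58), with a log2 fold change of -0.27 (SE 0.28, 95% interval -0.86 to 0.32). Slc38a2 (-0.17, SE 0.24), Slc7a6 (-0.20, SE 0.22), Slc38a1 (0.12, SE 0.18) and Slc7a11 (0.26, SE 0.45) differed by less than their SE, and the latter pair were negative when libraries were scaled by their totals, under which the median of all genes moved from -0.05 to -0.40. Slc38a3 had too few counts to be fitted. It ranged from 0.276 to 5.17 CPM in CD and from 0 to 2.46 CPM in HFD, a difference of mean log2(CPM + 1) of -1.02 (exact permutation test, two-sided, p = 0.060, not adjusted, where the smallest possible p is 0.000583). Expansion markers summed to 386 to 2792 CPM in CD and to 419 to 3105 CPM in HFD. None of 19 other transporters, 20 ATF4 genes, 24 lysosomal genes and 6 glutathione genes was called.

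**Figure D3:**
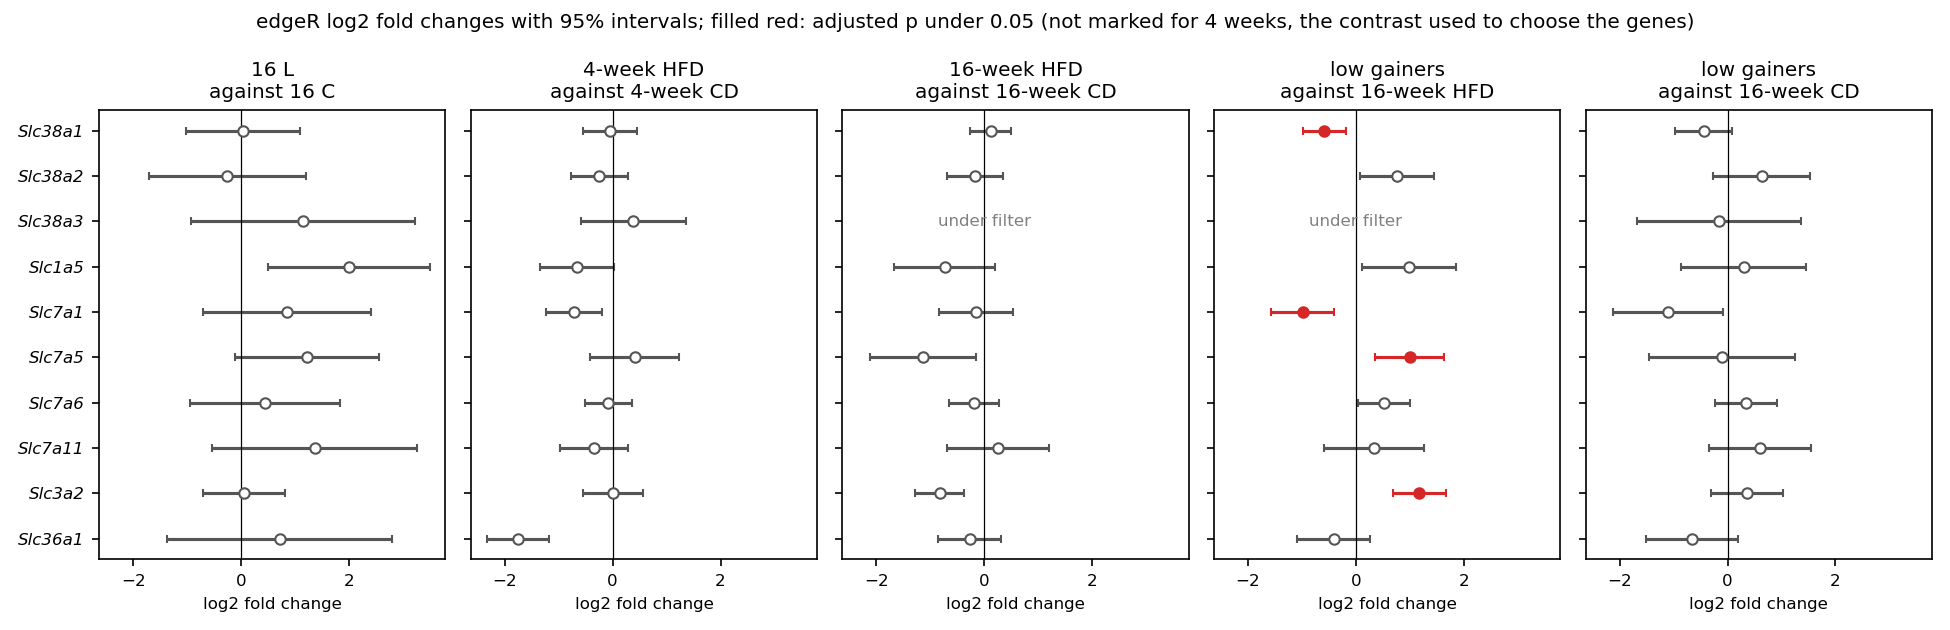
log2 fold changes of the 10 transporters from edgeR (horizontal axis) in 5 comparisons, with 95% intervals; filled red points passed an adjusted p of 0.05 and 4-week calls are not marked. In low weight gainers against 16-week HFD, Slc3a2 (1.18) and Slc7a5 (1.00) lie to the right and Slc7a1 (-0.99) and Slc38a1 (-0.59) to the left.

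Low weight gainers were set against the other mice on 16 weeks of HFD to compare animals on the same diet. In this comparison edgeR (adjusted p under the threshold) called 4 of the 9 members tested, 2 higher and 2 lower, beside 10.8% of 11258 genes called higher and 9.93% called lower. Non-overlapping values were seen for 3 of the 9 members and for 20.4% of the genes tested. The 2 that rose were the heavy chain Slc3a2 and its leucine-carrying partner Slc7a5.

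Slc3a2 read 490, 324 and 581 CPM in low weight gainers against 126 to 259 CPM in the 7 HFD libraries. All 3 were above every HFD library. This was a log2 fold change of 1.18 (SE 0.24, adjusted p = 0.00353 by edgeR), a level 2.26 times that of HFD. It passed the threshold in all 10 fits that left out 1 library, with values from 0.99 to 1.39 and adjusted p from 0.00232 to 0.0433, and in every other alternative fit. Slc7a5 read 13.4, 17.2 and 16.7 CPM against 4.92 to 12.95 CPM, again with no overlap, at 1.00 (SE 0.31, adjusted p = 0.0298 by edgeR). Its call was lost without any 1 of the low weight gainers or without HFD replicate 16, with an adjusted p of up to 0.123, and in the joint fit of 34 libraries (adjusted p = 0.268).

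Slc7a1, the arginine and lysine carrier, fell. It read 52.8, 62.9 and 34.9 CPM in low weight gainers and 50.3 to 137 CPM in HFD (median 101). Replicate 23 alone was below all HFD libraries, and HFD replicate 6 was lower than replicates 21 and 22. Its log2 fold change was -0.99 (SE 0.28, adjusted p = 0.0196 by edgeR) and lost its call without low weight gainer replicate 21 (adjusted p = 0.0664) or 23 (adjusted p = 0.142), and in the joint fit (adjusted p = 0.262). Slc38a1, a neutral amino acid carrier, read 61.7, 61.7 and 57.6 CPM against 68.0 to 99.6 CPM, with no overlap, and fell by 0.59 on the log2 scale (SE 0.19, adjusted p = 0.0388). Its call was lost in 7 of the 10 fits without 1 library, with library totals (-0.43, adjusted p = 0.207), without a filter or with at least 10 counts per library, and in the joint fit (adjusted p = 0.316).

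Slc38a2, its neighbour on chromosome 15, read 639, 1317 and 336 CPM in low weight gainers against 323 to 651 CPM, so that 1 library lay far above and the others among the HFD libraries. Its log2 fold change was 0.76 (SE 0.33, adjusted p = 0.0999 by edgeR). Slc1a5 (0.98, SE 0.42, adjusted p = 0.0968) and Slc7a6 (0.51, SE 0.23, adjusted p = 0.116) were not called. With library totals Slc38a2 (0.91, adjusted p = 0.0308) and Slc7a6 (0.70, adjusted p = 0.0471) were called. Slc38a2 was also called without low weight gainer replicate 23 (1.14, adjusted p = 0.0437) or HFD replicate 10 (0.92, adjusted p = 0.0448), and Slc1a5 without HFD replicate 10 (1.18, adjusted p = 0.0494). Slc7a11 at 0.33 (SE 0.44) and Slc36a1 at -0.41 (SE 0.32) were not called, with 95% intervals of -0.59 to 1.26 and -1.09 to 0.27. Slc38a3, under the filter, read 1.98, 2.72 and 3.39 CPM against 0 to 2.46 CPM, a difference of mean log2(CPM + 1) of 1.15 (exact permutation test, two-sided, p = 0.0667, where the smallest possible p is 0.00833).

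Of the 20 tested ATF4 response genes, 7 rose in low weight gainers and none fell, where 10.8% of all genes were called higher and 9.93% lower. The transcription factor gene Cebpb rose by 1.88 on the log2 scale (SE 0.39, adjusted p = 0.00584 by edgeR), the mitochondrial serine enzyme gene Shmt2 by 1.66 (SE 0.29) and the secreted glycoprotein gene Stc2 by 1.496 (SE 0.43). The other 4 were Psph, of serine synthesis, Ppp1r15a, a phosphatase subunit that restores translation, the alanine aminotransferase gene Gpt2 and Aldh18a1, of proline synthesis. The median log2 fold change of the list was 0.36, against -0.03 over all genes. Atf4 itself had a log2 fold change of 0.07 (SE 0.23) and Asns, the asparagine synthetase gene, of -0.01 (SE 0.24). Slc7a11, whose promoter holds the ATF4 core shown above, was not called.

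**Figure D4:**
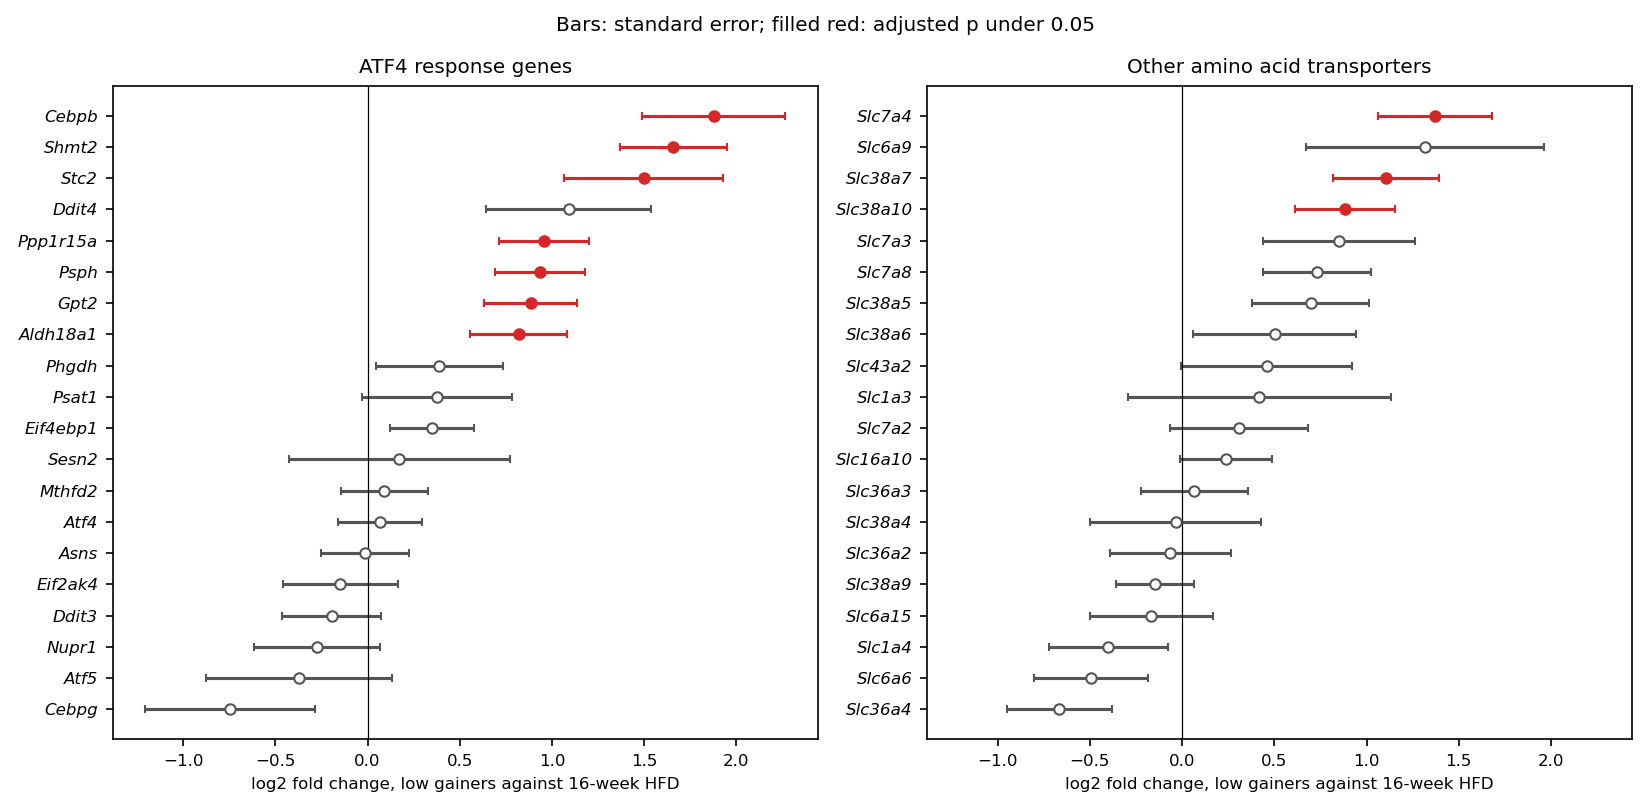
log2 fold changes (horizontal axes) with standard errors in low weight gainers against 16-week HFD, for the tested ATF4 response genes (left) and other amino acid transporters (right); filled red points passed an adjusted p of 0.05. All 7 called genes on the left and all 3 on the right are above 0, with Cebpb (1.88) and Slc7a4 (1.37) at the top.

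Among 20 other transporters 3 rose and none fell, and the counts of this and the following lists stand beside the same 10.8% and 9.93% of all genes. These were Slc7a4 (1.37, SE 0.31, adjusted p = 0.00666 by edgeR), the lysosomal glutamine carrier gene Slc38a7 (1.11, SE 0.29) and Slc38a10 (0.88, SE 0.27). Of 24 lysosomal sensing genes, Flcn (1.17, SE 0.22), the Rag GTPase gene Rragc (1.09, SE 0.25) and Nprl3 rose, and Fnip1 (-0.99, SE 0.24), whose product binds that of Flcn, and Wdr59 fell. Of 6 glutathione genes, the reductase gene Gsr (0.84, SE 0.27) and the synthetase gene Gss (0.64, SE 0.19) rose.

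Other cell markers gave these values beside the low weight gainer results. Of the cumulus expansion markers 2 of 4 tested fell, and the summed expansion level was 730 to 882 CPM in low weight gainers and 419 to 3105 CPM in HFD. The macrophage and neutrophil markers summed to 285 to 374 CPM and to 128 to 646 CPM, with 1 of 7 tested called higher. Oocyte markers were at 0 to 0.825 CPM in low weight gainers and 0 to 2.33 CPM in HFD. The part of the expansion markers in the transporter results was not tested.

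Low weight gainers share their libraries with the next comparison, against 16-week CD, which in turn shares its CD libraries with the diet comparison at 16 weeks. That diet comparison and the one of low weight gainers against HFD also share the 16-week HFD libraries. Their results are therefore not independent. None of the 10 members was called by edgeR or any alternative, beside 0.00861% of 11620 genes called higher and 0% called lower. Slc7a1 was the farthest from 0, at 52.8, 62.9 and 34.9 CPM against 45.0 to 180 CPM in CD, a log2 fold change of -1.10 (SE 0.47, adjusted p = 0.420 by edgeR, 95% interval -2.12 to -0.08). It was the only member with an unadjusted p under 0.05 (1299 genes in all). Slc3a2, at 490, 324 and 581 CPM against 243 to 444 CPM, had a log2 fold change of 0.37 (SE 0.31, 95% interval -0.30 to 1.04). Slc36a1 gave -0.66 (SE 0.39) and Slc7a5 -0.10 (SE 0.62), the last with a sign that turned to 0.51 by limma-voom with quality weights and to 0.96 without CD replicates 1 and 2.

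The diet difference at 16 weeks was compared with that at 4 weeks in 1 fit of both times, with 1.74% of 12235 genes called higher and 1.92% called lower. Slc36a1 had an interaction of 1.57 (SE 0.38), a description only, since its 4-week values chose the members. The 4-week diet difference also enters the values of the other members, which are given with no test. These were -1.95 (SE 0.92) for Slc38a3, -1.46 (SE 0.62) for Slc7a5 and -0.77 (SE 0.35) for Slc3a2. In the pathway lists the neutral amino acid light chain gene Slc7a8 (-2.33, SE 0.65) and Slc38a10 (-2.21, SE 0.54) had lower, and Fnip1 (1.59, SE 0.37) and Wdr59 (1.17, SE 0.32) higher diet differences at 16 than at 4 weeks.

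The heavy chain was then set against the 3 light chains among the members across all 34 libraries, on log2(CPM + 1) with group means removed. Slc7a8, a further light chain gene at a median of 13.1 CPM per kb, was not included. The proteins pair at the cell surface, and the comparison asks whether their mRNA levels vary together. Slc3a2 and Slc7a5 had a Pearson r of 0.408 (permutation test within groups, p = 0.0117, adjusted over the 3 pairs p = 0.0352) and a Spearman rho of 0.292 (permutation p = 0.101, adjusted p = 0.303). Leaving out 16 L replicate 18 and low weight gainer replicate 23, the 2 libraries with the most extreme Slc3a2 before group means were removed, gave r = 0.309. Without 16 L replicate 18 alone it was 0.306 (permutation test, adjusted p = 0.179), so that the call rested on that library. With library totals over all 34 libraries r was 0.635 (permutation test, adjusted p = 0.00069) and rho 0.513 (permutation test, adjusted p = 0.0111). Slc7a6 gave r = 0.345 (permutation p = 0.0632, adjusted p = 0.0948) and rho = 0.223 (permutation p = 0.237, adjusted p = 0.356), with r = 0.127 without the 2 libraries. Slc7a11 gave r = 0.0581 (permutation p = 0.774, adjusted p = 0.774) and rho = 0.0744 (permutation p = 0.70, adjusted p = 0.70), with r = 0.232 without them.

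As a description, the gene whose pattern was most like Slc3a2, among 13235 genes and after group means were removed, was P4hb, which folds proteins in the endoplasmic reticulum (r = 0.824 over 34 libraries and 0.826 without 16 L replicate 18), followed by Atp5a1 and Aurka. For Slc7a5 it was the lipase gene Pnpla2 (0.879, and 0.844 without that library). For Slc36a1, Stard9 was at 0.898 and at 0.822 without it, while Fam38b went from 0.90 to 0.58 and Lrmp from 0.881 to 0.59. For Slc38a2 and Slc7a1 the nearest genes were Bmper (0.906 and 0.603) and Col4a1 (0.907 and 0.742), and for Slc7a6 Tpp1 (0.859 and 0.476). Slc38a1 lay nearest to Csgalnact2 (0.876 and 0.805), Slc38a3 to Slc25a12 (0.766 and 0.755), Slc7a11 to Sorl1 (0.665 and 0.598) and Slc1a5 to 6430548M08Rik (0.782 and 0.766). Among the members themselves, the pair Slc38a2 and Slc7a1 had r = 0.809 over 34 libraries and 0.371 without 16 L replicate 18, and the highest pair over the 33 libraries was Slc1a5 and Slc36a1 (r = 0.638), which had r = -0.0232 over all 34. These libraries share depth and make-up differences, which enter such values.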

How the data were processed

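Gene counts from 34 Smart-seq2 libraries (oligo-dT capture, cDNA amplified by PCR) were used as deposited. Per the labels, the authors aligned reads to GRCm38, and the submitters' processing notes name Trim Galore 0.4.2 and HISAT2 2.0.5. The program that gave the counts and its use of strand are not given in the sources used here. Amplified reads without molecular identifiers are not independent molecules, so depth and counting limits cover counting error only. Library totals ranged from 1104611 to 13207018. None of the 72 pairs of libraries within groups was identical, and each differed by more than sampling noise (chi-square per degree of freedom of 3.26 or more).

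Comparisons used the quasi-likelihood test of edgeR 4.0.16 (R 4.3.3) on the libraries of the 2 groups, with TMM scaling, filterByExpr and Benjamini-Hochberg adjustment over all genes tested, at an adjusted p under 0.05. Standard errors were derived from the F statistic, and 95% intervals used its degrees of freedom. Levels per kb used the union of GENCODE M21 exons. Members under the filter were tested by exact permutation of log2(CPM + 1), and correlations with 100000 permutations. The authors' methods state normalization by size factors, which were not used here other than in DESeq2 and RLE. Alternatives were DESeq2 1.42.0, limma 3.58.1 voom with sample quality weights, RLE scaling, library totals, no filter, a minimum of 10 counts per library, a joint fit of the 34 libraries, a pseudocount of 0.1, and leaving out each library. The fits were tested on simulated data.

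The 10 members and the gene lists were chosen with earlier results of these data known. The genes named are the members, up to 3 called genes with the largest fold change per list and comparison, the 3 genes most like each member, and markers. Psph, Ppp1r15a, Gpt2, Aldh18a1, Nprl3 and Wdr59 in low weight gainers, Atf4 and Asns there, and the most abundant other transporters, were named after their values were seen. By the study's methods cells were collected per animal, and libraries of a group were taken as separate mice, so the p-values include variation between mice and in the preparation of small samples.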

Additional observations from a re-analysis of the deposited data

Results flagged for a closer look

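In 50 combinations of member and group of 4 to 10 libraries, 6 had 1 library far from the others, where chance gives about 1 in 20. In 16 L, replicate 18 was lowest for Slc38a2 at 43.5 CPM with the next library at 461 CPM, a gap of 0.758 of the group's range, and lowest for Slc7a1 at 12.0 CPM with the next at 181 CPM, a gap of 0.815. In 16-week CD, replicate 8 was highest for Slc38a2 at 716 CPM, a gap of 0.653. In 4-week HFD, replicate 13 was highest for Slc7a1 at 201 CPM, a gap of 0.726, and replicate 5 lowest for Slc36a1 at 6.46 CPM, a gap of 0.783. In 4-week CD, replicate 8 was lowest for Slc3a2 at 136 CPM, a gap of 0.739, while the other 4 lay at 296 CPM or more. The diet difference of Slc36a1 was larger at 4 than at 16 weeks, with an interaction of 1.57 on the log2 scale, in which the 4-week values had chosen the gene.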

How the results depend on the processing

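No paired analysis was possible because groups compared within an experiment share no replicate numbers. Alternatives that leave out 2 libraries together, or 16 L replicate 18 from the correlations and pathway lists, were chosen after the data were seen. Counts of members called moved as follows. In 16 L (0 called) DESeq2 gave 1 (Slc1a5), sample quality weights 6, library totals 2 (Slc7a5 and Slc1a5), all 34 libraries in 1 fit 1 (Slc1a5), and leaving out 16 L replicate 18 with 16 C replicate 1 gave 1, with 0 to 2 when 1 library was left out. Over all genes, these 5 settings called 1595, 3912, 3652, 2720 and 1317 higher in 16 L, against 476 in the main fit. At 4 weeks the values chose the members, so the counts describe the fits and are no test. The main fit had 1 past the threshold. There DESeq2 gave 2, quality weights 3, 1 fit of all libraries 0 and leaving out HFD replicates 13 and 14 gave 2. Over all genes, these 4 settings called 777, 2113, 63 and 584 lower, against 359 in the main fit. At 16 weeks (0 called) DESeq2, library totals and 1 fit of all libraries gave 1 each, and leaving out 1 library 0 to 2. Over all genes, these 3 settings called 765, 1591 and 1136 lower, against 2 in the main fit. For low weight gainers against HFD (4 called) 1 fit of all libraries gave 1 (Slc3a2). No filter and a minimum of 10 counts gave 3 each (without Slc38a1). Library totals gave 5 (without Slc38a1, with Slc38a2 and Slc7a6), and leaving out 1 library 1 to 6. Over all genes, the joint fit called 370 higher and 117 lower of 13236, and no filter 1162 and 936 of 16743. A minimum of 10 counts called 1059 and 914 of 8022, and library totals 1585 and 598 of 11258. The main fit called 1212 and 1118 of 11258. The interaction counts are likewise no test, since the 4-week values enter them. Its main fit had 1 past the threshold, quality weights 4, and library totals, no filter and 1 fit of all libraries 0 each. Leaving out 4-week HFD replicates 13 and 14 gave 2, and leaving out 1 library 0 to 1. Over all genes, quality weights called 1028 higher and 1261 lower for the interaction, against 213 and 235 in the main fit. Low weight gainers against CD stayed at 0 throughout. The correlation of Slc3a2 with Slc7a6 passed with library totals (r = 0.559, permutation test), and that with Slc7a5 rose to r = 0.635 with library totals but did not pass without 16 L replicate 18 (r = 0.306).

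Of 975 alternatives for single values, 876 were counted as the same. For fold changes this meant the same side of the threshold and the same direction. The tally also holds the members' median levels by library totals, which have no threshold. It holds the 4-week and interaction values too, which are no test. The direction turned in 41, none of them called. In 16 L these were Slc38a1 (-0.0048 with DESeq2, -0.18 with quality weights, -0.0074 with RLE), Slc38a2 (0.65 with totals) and Slc3a2 (-0.021 without 16 L replicate 18 and 16 C replicate 1). At 4 weeks they were Slc7a6 (0.0040 with quality weights, 0.10 without HFD replicates 13 and 14), Slc7a11 (0.10 with quality weights) and Slc3a2 (-0.10 with totals). At 16 weeks they were Slc7a1 (0.41 with quality weights, 0.50 without CD replicates 1 and 2), Slc38a1 and Slc7a11 (-0.26 and -0.20 with totals), and Slc1a5 and Slc36a1 (0.066 and 0.087 without CD replicates 1 and 2). Against CD, low weight gainers gave Slc38a3 0.10 and Slc7a5 0.51 with quality weights, Slc1a5 -0.0060 with totals, and Slc7a5 0.96 without CD replicates 1 and 2. The cause was not tested.

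With 1 library left out, values that turned ranged as follows: in 16 L, Slc38a1 -0.32 to 0.21 and Slc3a2 -0.047 to 0.22. At 4 weeks, Slc38a1 ran from -0.17 to 0.13, Slc7a6 from -0.15 to 0.0015 and Slc3a2 from -0.17 to 0.11, and at 16 weeks Slc7a1 from -0.32 to 0.093. Against CD, low weight gainers ran from -0.32 to 0.10 for Slc38a3, -0.25 to 0.28 for Slc7a5 and -0.061 to 0.66 for Slc1a5. Depth limited Slc38a3 most, with 0 to 119 reads in a library.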
